A study of Mus musculus with 6 samples.

Results

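Matricellular glycoproteins and fibronectin were measured as gene counts in mouse pancreatic fibroblasts labelled WT or Gli2/Gli3 KO. The members are the genes whose symbol in the count table equals 1 of 10 names: Fn1, Tnc, Postn, Sparc, Spp1, Thbs1, Thbs2, Thbs3, Fbln1 and Fbln2. Of these 10, 9 were found among the 14831 genes of the table, and Fbln1 was not analysed here. The RNAseq study compared 3 libraries labelled WT with 3 labelled KO, to learn which transcripts of fibroblasts depend on the hedgehog transcription factors GLI2 and GLI3. Both groups are immortalized fibroblasts of mixed strain, grown out from the pancreas of adult mice with floxed Gli alleles. The WT cells were infected with a GFP adenovirus and a dsRed lentivirus, and the KO cells (genotype label Gli2-/-;Gli3-/-) with GFP and Cre adenoviruses. Infected cells were sorted by flow cytometry, and each library came from its own confluent well in medium with calf serum. How many lines a group holds is not given in the sources used here, so the spread between wells may not be that between independently made lines.

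Matricellular proteins are secreted into the extracellular matrix (ECM), where they mainly tune how cells attach and signal and do little to bear load. Fibronectin, by contrast, is a structural glycoprotein that cells pull into fibrils through integrins, and many matricellular proteins bind to it or to the collagens beside it. In the pancreas, fibroblasts are a main source of these proteins during fibrosis and in the stroma of tumors.

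The libraries hold between 31728420 and 41035931 counts on genes. Gli2 and Gli3 were read first as a check of the labels. Gli2 had 809, 944 and 868 counts in the WT-labelled wells and 1932, 2316 and 1926 in KO-labelled wells. Gli3 had 392, 416 and 398 counts in the WT-labelled wells and 1434, 1637 and 1404 in KO-labelled wells. Both targeted genes were thus higher in the KO-labelled wells, against the named genotype. The counts are totals over whole genes, and the exons that the floxed alleles lose are not given in the sources used here, so a shortened transcript and a whole one cannot be told apart. Wells are therefore named by label only, as WT-labelled or KO-labelled, and each direction below rests on those labels. The study also assessed the deletion in its lines by qPCR and western blot, and those measurements were not analysed here. Of 8 fibroblast markers all were listed, at a summed level between 44822 and 47236 CPM (counts scaled to the size of the library) in the WT-labelled wells and between 36783 and 38533 CPM in KO-labelled wells. Among them Thy1 was near the floor of 3 counts, with 4, 1 and 0 counts in the WT-labelled wells and 19, 15 and 9 in KO-labelled wells.

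In the KO-labelled wells, 3 of the 9 members were lower and 0 were higher by the rule used for a call, which asks for an adjusted p under 0.05 together with a difference of 1.5-fold or more. The 3 genes were Thbs2, Spp1 and Tnc. In bulk RNA, fewer cells of a type and less RNA per cell cannot be told apart. By the same rule 17.7% of the 14289 genes tested were called, 6.10% as lower and 11.6% as higher. Fn1, Sparc, Thbs1 and Fbln2, the most abundant members, were each estimated to differ by less than 1.5-fold. Without the fold limit 7 of the 9 members passed, 5 lower and 2 higher, where 58.7% of all genes passed, 28.8% lower and 29.9% higher. With a limit of 2-fold, Thbs2 and Spp1 alone passed, both lower, where 10.2% of all genes passed and 2.83% were lower. The CPM ranges of the groups did not overlap for 8 of the 9 members, 6 lower and 2 higher in the KO-labelled wells. The same held for 64.2% of all genes, 31.3% lower and 32.9% higher. The median log2 fold change of the 9 members was -0.21, against 0.0020 over all genes, and their median absolute log2 fold change was 0.24, against 0.22. All 9 members passed the filter on low counts, and the lowest count of any member in any library was 31.

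**Figure D1:**
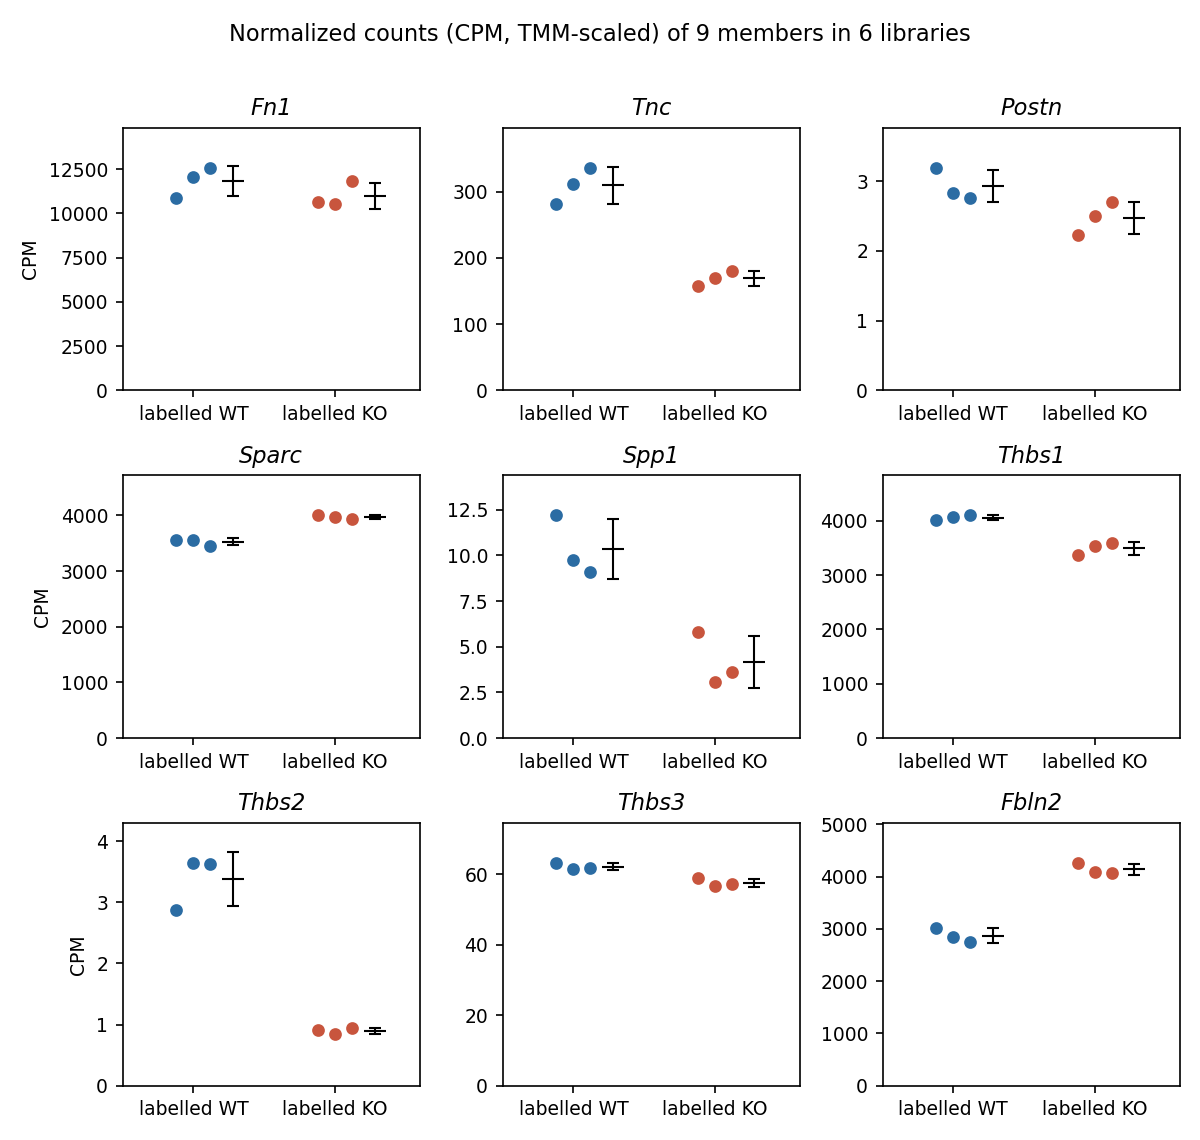
Normalized counts (vertical axes from 0, in CPM) of the 9 members in the 3 WT-labelled wells (blue) and the 3 labelled KO (red), with 1 point per library and the mean and SD in black. The red points of Thbs2 lie between 0.840 and 0.939 CPM, under the lowest blue point at 2.87 CPM, while the points of Fn1 overlap.

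The DNA before the start sites of the 3 called genes is shown, with Thbs3 beside them as a member of the thrombospondin family that was not called. Each sequence holds the 250 bases before the RefSeq start site on GRCm38.p6, 5′ to 3′ on the gene's strand, and capitals mark every match to the motifs named below.
Tnc, chr4:64047016-64047265, minus strand: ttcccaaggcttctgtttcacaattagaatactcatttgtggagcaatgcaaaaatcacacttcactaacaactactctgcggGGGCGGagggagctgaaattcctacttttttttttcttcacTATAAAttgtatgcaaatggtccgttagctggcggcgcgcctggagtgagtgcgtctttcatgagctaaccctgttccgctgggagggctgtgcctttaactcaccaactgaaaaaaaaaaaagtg
Spp1, chr5:104434861-104435110, plus strand: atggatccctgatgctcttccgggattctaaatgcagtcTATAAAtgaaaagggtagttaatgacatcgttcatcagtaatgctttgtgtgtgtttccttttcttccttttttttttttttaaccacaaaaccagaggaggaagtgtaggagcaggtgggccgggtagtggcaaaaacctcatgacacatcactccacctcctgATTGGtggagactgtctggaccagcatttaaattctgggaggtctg
Thbs2, chr17:14694263-14694512, minus strand: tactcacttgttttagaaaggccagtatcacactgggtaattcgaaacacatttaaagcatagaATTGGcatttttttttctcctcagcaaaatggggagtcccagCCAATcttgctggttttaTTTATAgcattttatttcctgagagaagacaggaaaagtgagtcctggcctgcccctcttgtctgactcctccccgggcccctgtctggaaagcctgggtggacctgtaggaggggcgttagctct
Thbs3, chr3:89214930-89215179, plus strand: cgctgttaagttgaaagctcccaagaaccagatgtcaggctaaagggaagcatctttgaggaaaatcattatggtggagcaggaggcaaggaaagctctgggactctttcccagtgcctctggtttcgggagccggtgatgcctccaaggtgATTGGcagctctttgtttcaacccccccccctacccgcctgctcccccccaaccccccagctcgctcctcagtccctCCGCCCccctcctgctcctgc
RefSeq windows were held for 7 of the 9 members, all but Fn1 and Thbs1. Where a gene has more than 1 window, the one farthest upstream is described. The letters TATAAA, searched like all motifs on both strands, occur in the windows of Tnc, Spp1 and Thbs2, with the first base 126, 211 and 126 bases before the start site. These letters are absent from the windows of Thbs3, Sparc and Fbln2. Postn lacks them in its upstream window and holds them in its downstream one, 26 bases before that start site. Spp1 lacks them in its downstream window, and Tnc holds them in both of its windows. They occur in 12.4% of the 32851 promoter windows of the table. CCAAT occurs in the windows of Spp1, Thbs2 and Thbs3 and in 33.8% of all windows, and the GC box GGGCGG in those of Tnc, Thbs3 and Fbln2 and in 32.7% of all windows. The GLI motif GACCACCCA was in 0 of the 7 windows and in 0.225% of all windows. The AP-1 motif TGANTCA (6.75% of all windows) and the TEAD motif GGAATG (12.6%) were also in 0 of the 7. The windows of Tnc, Spp1 and Thbs2 hold 44.8%, 43.6% and 46.8% G and C, where the median of all windows is 52.4%. Of the members not called, Thbs3, Fbln2 and Sparc hold 58.8%, 58.8% and 54.0%, and Postn holds 40.4%, the lowest of the 7. A match describes letters in a window and is not evidence of a bound factor.

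Fn1 (chr1:71585520-71653200, minus strand) encodes fibronectin, the fibril-forming glycoprotein that binds collagen and the integrin of the Itga5 and Itgb1 chains. It had 10896, 12057 and 12576 CPM in the WT-labelled wells and 10649, 10507 and 11813 CPM in KO-labelled wells. These ranges overlap, and the mean (given with the SD of 3 wells, here and below) was 11843 ± 860.1 CPM in the WT-labelled wells and 10990 ± 716.5 CPM in KO-labelled wells. The log2 fold change was -0.11 (SE 0.05, adjusted p = 0.0909), with a 95% interval from -0.22 to 0.0045 that excludes a 1.5-fold change. Leaving out WT replicate 1, the lowest WT-labelled well, gave -0.17 (adjusted p = 0.00589), and leaving out KO replicate 3, the highest labelled KO, gave -0.16 (adjusted p = 0.00722). Fn1 is a long transcript, and long transcripts deviated in the same libraries. Over 978 genes with a transcript of at least 7 kb, the median deviation from the group mean was -0.04 in WT replicate 1, 0.05 in WT replicate 3, -0.05 in KO replicate 1 and 0.07 in KO replicate 3, on the log2 scale. Fn1 itself deviated by -0.12 in WT replicate 1 and by 0.11 in KO replicate 3, and the part of this in its result was not tested. Exons of Fn1 share 292 bases with Apol7d on the opposite strand, which averaged 1.94 CPM in the WT-labelled wells.

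Tnc (chr4:63959785-64047015, minus strand) encodes tenascin C, a large branched glycoprotein that weakens cell adhesion to fibronectin and is prominent in healing wounds and tumor stroma. It had 281.0, 312.0 and 336 CPM in the WT-labelled wells and 158, 169.9 and 181 CPM in KO-labelled wells. Every KO-labelled well lay under every WT-labelled one. The mean was 309.7 ± 27.7 CPM in the WT-labelled wells and 169 ± 11.4 CPM in KO-labelled wells, and Tnc fell by 0.87 on the log2 scale (SE 0.06, adjusted p = 8.19e-08), or 1.83-fold lower. As for Fn1, WT replicate 1 was the lowest of its group and replicate 3 the highest of each group, and the difference between the groups exceeded that spread. Leaving out each library in turn kept its log2 fold change between -0.94 and -0.81. Exons of Tnc share 176 bases with a transcript on the opposite strand that was not analysed here.

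Postn (chr3:54361109-54391037, plus strand) encodes periostin, which binds collagen and tenascin C and is induced in activated fibroblasts of many tissues. It was scarce in both groups, with 100, 95 and 88 counts in the WT-labelled wells and 79, 104 and 89 in KO-labelled wells. Scaled to CPM these are 3.19, 2.84 and 2.76 in the WT-labelled wells and 2.23, 2.50 and 2.696 in KO-labelled wells, so that the groups come close without overlapping. The log2 fold change was -0.24 (SE 0.13, adjusted p = 0.120), with a 95% interval from -0.52 to 0.034, and no difference was detectable at this depth.

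Sparc (chr11:55394500-55423183, minus strand) encodes a calcium-binding glycoprotein, also named osteonectin, that binds collagens and takes part in their deposition. It had 3568, 3555 and 3459 CPM in the WT-labelled wells and 4002, 3964 and 3936 CPM in KO-labelled wells. The libraries of each group lie close together, and all KO-labelled wells are above all WT-labelled wells. The means were 3527 ± 59.5 and 3967 ± 32.8 CPM, a log2 fold change of 0.17 (SE 0.03, adjusted p = 8.99e-05). The 95% interval runs from 0.11 to 0.23, so that this difference is larger than the spread between wells and is well under 1.5-fold.

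Spp1 (chr5:104435118-104441050, plus strand) encodes osteopontin, a secreted phosphoprotein that binds integrins with the alpha v chain and the hyaluronan receptor CD44, and that macrophages also make. It had 382, 327 and 290 counts in the WT-labelled wells and 205, 128 and 119 in KO-labelled wells, or 12.2, 9.76 and 9.08 CPM and 5.79, 3.07 and 3.60 CPM. The highest KO-labelled well lay under the lowest labelled WT, but Spp1 was the member with the largest relative spread between wells, with a coefficient of variation of 15.8% in the WT-labelled wells and 34.7% in KO-labelled wells. Spp1 fell by 1.33 on the log2 scale (SE 0.18, adjusted p = 4.23e-05), or 2.51-fold, with a 95% interval from -1.72 to -0.93. Without KO replicate 1 the log2 fold change was -1.64, and without KO replicate 2 it was -1.13. Exons of Spp1 share 309 bases with a transcript on the same strand that was not analysed here. Macrophage markers were read beside it: 4 of 8 were analysed here, with a summed level between 55.6 and 60.8 CPM in the WT-labelled wells and between 52.4 and 54.1 CPM in KO-labelled wells, most of it from Lyz2. Adgre1, Itgam, Ptprc and Mrc1 were not analysed here, and the part of macrophage RNA in the Spp1 result was not tested.

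The thrombospondins are secreted multimers that bind calcium and cell surface receptors. Thbs1 and Thbs2 form trimers, inhibit the growth of blood vessels and bind CD47 and CD36, and thrombospondin 1 can also activate latent TGF-beta. Thbs3 belongs to the branch of the family that forms pentamers. Among these 3 genes, which are not the whole family, the level in these fibroblasts was almost entirely that of Thbs1. Per kilobase of exons, Thbs1 made up 98.0 ± 0.0384% of the summed level of the 3 genes in the WT-labelled wells and 97.9 ± 0.107% in KO-labelled wells. Thbs3 made up 1.89 ± 0.0469% and 2.03 ± 0.107%, and Thbs2 0.0708 ± 0.00864% and 0.0217 ± 0.00134%.

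Thbs2 (chr17:14665500-14694235, minus strand) differed most of all members on the log2 scale. It had 90, 122 and 116 counts in the WT-labelled wells and 32, 35 and 31 in KO-labelled wells, or 2.87, 3.64 and 3.63 CPM and 0.904, 0.840 and 0.939 CPM. Each KO-labelled well was far under each labelled WT. Thbs2 fell by 1.92 on the log2 scale (SE 0.16, adjusted p = 4.69e-07), or 3.79-fold, with a 95% interval from -2.27 to -1.57. With so few counts the fold is known less well than that of Tnc, whose interval runs from -1.001 to -0.74.

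Thbs1 (chr2:118111876-118127133, plus strand) had 4009, 4064 and 4098 CPM in the WT-labelled wells and 3365, 3528 and 3598 CPM in KO-labelled wells. The groups did not overlap, and the means were 4057 ± 44.5 and 3497 ± 119.9 CPM. The log2 fold change was -0.21 (SE 0.03, adjusted p = 4.17e-05), with a 95% interval from -0.28 to -0.15, under the 1.5-fold limit. Thbs3 (chr3:89215180-89226837, plus strand) had 63.2, 61.5 and 61.7 CPM in the WT-labelled wells and 58.9, 56.8 and 57.2 CPM in KO-labelled wells. Its log2 fold change of -0.11 (SE 0.03, adjusted p = 0.0154) depended on the scaling, with an adjusted p of 0.224 under upper-quartile factors and 0.0836 under total counts. Thbs3 exons share 318 bases with Mtx1 on the opposite strand, which had 19.4 ± 0.766 CPM in the WT-labelled wells and 20.9 ± 1.51 CPM in KO-labelled wells. Whether the counting used strand is not given in the sources used here.

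The ratio of 2 genes in the same library does not depend on scaling between libraries. Thbs1 had 1213 ± 159 times the counts of Thbs2 in the WT-labelled wells and 3918 ± 250.6 times in KO-labelled wells. In log2 units the ratio was 10.45, 10.12 and 10.14 in the WT-labelled wells and 11.86, 12.04 and 11.90 in KO-labelled wells, a difference of 1.70. The log2 ratio of Thbs2 to Thbs3 was lower by a like amount, from -4.21 ± 0.22 to -6.01 ± 0.08. The ratio of Thbs1 to Thbs3 was 65.3 ± 1.62 in the WT-labelled wells and 60.7 ± 3.16 in KO-labelled wells. Its log2 values were 5.99, 6.05 and 6.05 against 5.84, 5.96 and 5.98, and the highest KO-labelled well lay just under the lowest labelled WT. These ratios are given as descriptions. No model was fitted to them, and a two-sided exact permutation test of 3 libraries against 3 cannot give a p under 0.1.

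Fbln2 (chr6:91212455-91272540, plus strand) encodes fibulin 2, which binds fibronectin and lies in basement membranes and around elastic fibres. It had 3020, 2847 and 2744 CPM in the WT-labelled wells and 4261, 4094 and 4069 CPM in KO-labelled wells. Every KO-labelled well lay above every WT-labelled one, with means of 2870.3 ± 139 and 4141 ± 105 CPM. The log2 fold change was 0.53 (SE 0.04, adjusted p = 5.98e-08), or 1.44-fold, and its 95% interval from 0.45 to 0.61 includes the 1.5-fold limit, which is 0.58 on the log2 scale. Upper-quartile factors put it at 0.59, past the limit, so that Fbln2 was the member nearest to a call. No fibulin ratio is given, because Fbln1 was not analysed here.

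**Figure D2:**
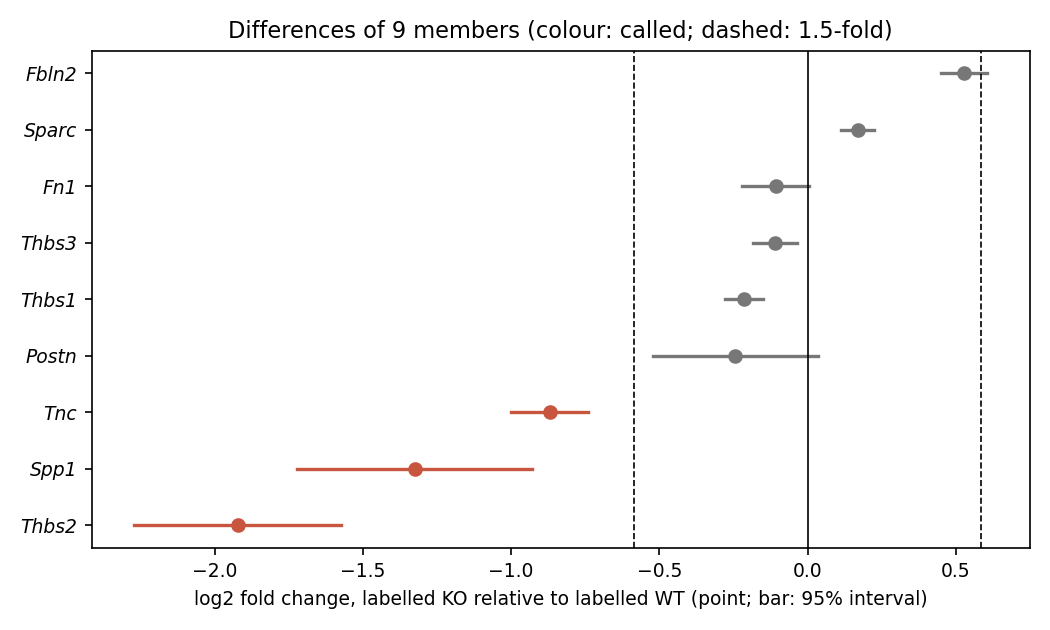
Log2 fold change of each of the 9 members in the KO-labelled wells relative to WT-labelled wells (horizontal axis), with bars for the 95% interval and dashed lines at 1.5-fold. Thbs2, Spp1 and Tnc (red, called) lie left of the dashed line, at -1.92, -1.33 and -0.87, and the other 6 (grey) lie between the dashed lines.

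Levels of different genes were compared per kilobase of exons. In the WT-labelled wells the order was Fn1 with 1014 ± 73.6 CPM per kb, Sparc with 931 ± 15.7, Thbs1 with 668 ± 7.33 and Fbln2 with 451 ± 21.9. The libraries of Fn1 and Sparc overlap, and all other neighbours in the order given here were separated beyond their spread. More than 10-fold further down came Tnc with 39.8 ± 3.56 CPM per kb, then Thbs3 with 12.9 ± 0.191 and Spp1 with 6.28 ± 0.991. Thbs2 with 0.483 ± 0.0632 and Postn with 0.336 ± 0.0266 CPM per kb were last. By this length, a pair of neighbours at the top, another below them and the last pair changed places between the groups. In the KO-labelled wells, Sparc came first with 1047 ± 8.65 CPM per kb and Fn1 followed with 940.5 ± 61.3, with no overlap. Fbln2 with 650.1 ± 16.4 CPM per kb stood above Thbs1 with 576 ± 19.7, and Postn with 0.284 ± 0.0268 above Thbs2 with 0.128 ± 0.00718. The order of the first 2 genes in the WT-labelled wells rests on the length used: per kilobase of the longest transcript, Sparc had 1534 ± 25.9 CPM per kb and Fn1 1424 ± 103 CPM per kb. By that length Sparc also led in the KO-labelled wells, with 1725 ± 14.2 against 1322 ± 86.2, so that Sparc and Fn1 did not change places. The last pair was then not separated in the WT-labelled wells, where Thbs2 had 0.574 ± 0.0751 and Postn 0.561 ± 0.0443 CPM per kb.

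Among the 14822 genes with a length, Fn1 ranked 10 by level per length in both groups. Sparc ranked 13 in the WT-labelled wells and 7 in KO-labelled wells, Thbs1 28 and 39, and Fbln2 56 and 32. The other members rank lower, and shifts in rank at unlike levels do not compare as sizes of change. Of those not called, Thbs3 ranked 3862 in the WT-labelled wells and 4063 in KO-labelled wells, and Postn 12584 and 13059. Of the called members, Tnc went from rank 1150 to rank 2191 and Spp1 from 6411 to 9292. Thbs2 ranked 12058 in the WT-labelled wells and 14005 in KO-labelled wells. The 9 members took 2.24 ± 0.0741% of all counts in the WT-labelled wells and 2.31 ± 0.0633% in KO-labelled wells. Fn1 alone held 52.2 ± 2.11% and 48.1 ± 1.58% of the counts of the 9 members.

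**Figure D3:**
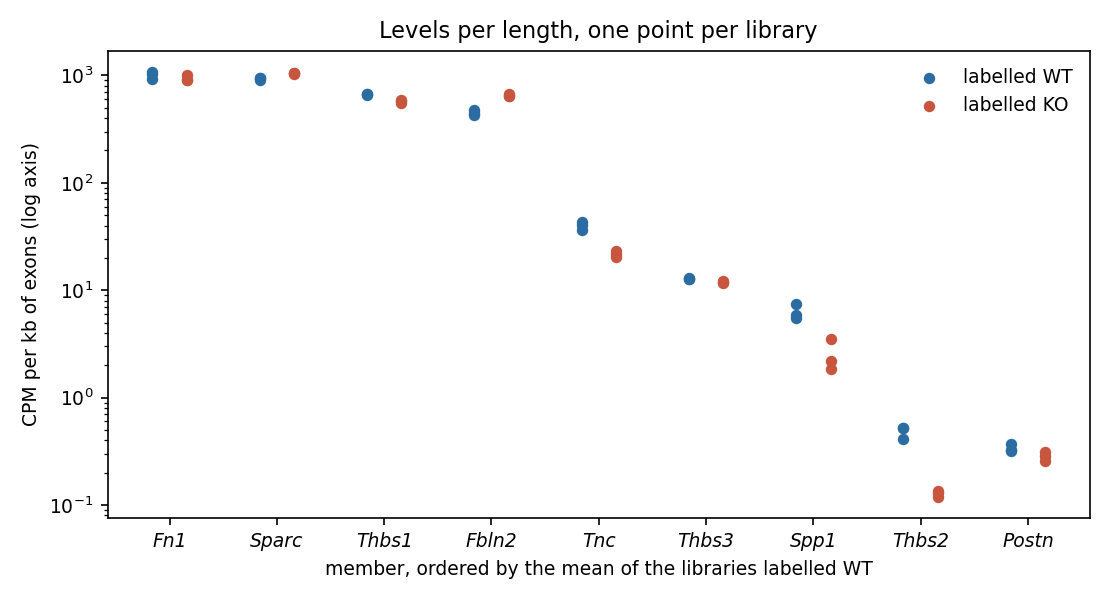
Level of each member in CPM per kb of exons (vertical log axis), with 1 point per WT-labelled well (blue) or KO (red), ordered by the mean of the WT-labelled wells. Fn1, Sparc, Thbs1 and Fbln2 lie above 100 CPM per kb in all libraries, and Thbs2 and Postn lie below 1 CPM per kb.

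Relatives of the members, from the tenascin, SPARC, fibulin, CCN and thrombospondin families and a few other matrix proteins, were read from a list of 30 genes, of which 18 were tested. In the KO-labelled wells, 10 of them rose and 3 fell, with a median log2 fold change of 0.84. That is 72.2% of the 18, where 17.7% of all genes tested were called, 11.6% higher and 6.10% lower. Without the filter on low counts 20 were tested, of which 10 rose and 5 fell, with a median log2 fold change of 0.66. With at least 10 counts required in every library, 17 were tested, of which 9 rose and 3 fell, with a median of 0.77. That filter leaves out Smoc1, with 10, 9 and 7 counts in the WT-labelled wells and 39, 57 and 50 in KO-labelled wells. Under it 1926 of 13155 genes were called, 1225 higher and 701 lower. Of the 10 that rose in the main test, Comp, Smoc1 and Spock2 were scarce, with means of 1.14, 0.269 and 0.942 CPM in the WT-labelled wells. Smoc2, a SPARC relative, had 6.18 ± 0.576 CPM in the WT-labelled wells and 56.7 ± 1.20 CPM in KO-labelled wells, a log2 fold change of 3.20 (SE 0.06, adjusted p = 3.25e-13). Tgfbi, a fasciclin domain protein like periostin, had a log2 fold change of 2.38 and rose from 23.7 ± 1.06 to 123 ± 13.3 CPM. Ccn3, of the CCN family of secreted signalling modulators, had a log2 fold change of 2.17. Of those that fell, Mgp, an inhibitor of calcification, fell by 1.84 on the log2 scale. Tnxb, the tenascin of loose connective tissue, fell by 1.82, and the hemicentin gene Hmcn2 fell by 1.15. Tnxb had 106.7 ± 15.3 CPM in the WT-labelled wells and 30.2 ± 4.12 CPM in KO-labelled wells, and so moved in the same direction as Tnc.

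Receptors for fibronectin and the matricellular proteins were read from a list of 20 genes, and 16 were tested. Of these, 1 rose, 4 fell and 11 were not called, with a median log2 fold change of -0.14. The share called was 31.2%, where 17.7% of all genes tested were called, 11.6% higher and 6.10% lower. With at least 10 counts required in every library, 15 were tested, of which 1 rose and 3 fell, with a median of -0.12. That filter leaves out Itgb8, with 1274, 1387 and 1436 counts in the WT-labelled wells and 7, 14 and 10 in KO-labelled wells. Under it 1926 of 13155 genes were called, 1225 higher and 701 lower. Itgb8, which pairs with the alpha v chain, had 42.3 ± 2.31 CPM in the WT-labelled wells and 0.279 ± 0.0722 CPM in KO-labelled wells, and fell by 7.21 on the log2 scale (SE 0.11, adjusted p = 7.79e-14). Itga8 and Itga9 encode integrin chains that can bind osteopontin and tenascin C, and they fell by 1.81 and 1.10. Itgb3, the remaining receptor that fell, went from 43.8 ± 1.77 to 25.1 ± 0.930 CPM, a log2 fold change of -0.80 (SE 0.05, adjusted p = 1.50e-08). Itgav, the alpha v chain itself, rose from 269.9 ± 0.914 to 641 ± 13.5 CPM, a log2 fold change of 1.25. The chains of the main fibronectin receptor were not called: Itga5 had a log2 fold change of -0.13 and Itgb1 of -0.05, at 232 ± 19.3 and 1858 ± 11.3 CPM in the WT-labelled wells. Cd47, a thrombospondin receptor, had a log2 fold change of -0.27, and Cd44, which binds osteopontin, of 0.06.

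Enzymes that modify, crosslink or cut the members were read from a list of 12 genes, all tested. Of these, 1 rose and 4 fell, with a median log2 fold change of -0.26. The share called was 41.7%, where 17.7% of all genes tested were called, 11.6% higher and 6.10% lower. With at least 10 counts required in every library, 11 were tested, of which 1 rose and 3 fell, with a median of -0.16. That filter leaves out Mmp9, with 19, 18 and 18 counts in the WT-labelled wells and 8, 7 and 10 in KO-labelled wells. Under it 1926 of 13155 genes were called, 1225 higher and 701 lower. Tgm2, the transglutaminase that crosslinks fibronectin, fell by 1.29 on the log2 scale, from 563 ± 32.3 to 230.4 ± 2.46 CPM. Fam20c, the kinase that phosphorylates osteopontin, fell by 0.68, and the protease gene Mmp3 fell by 0.98. Htra1, a secreted serine protease that cuts fibronectin, rose by 0.62. Without KO replicate 1 its log2 fold change was 0.57 (adjusted p = 6.32e-08), just under the fold limit of 0.58, so that it was not called. Pofut2 and B3glct, which add and extend sugars on thrombospondin repeats, had log2 fold changes of 0.23 and -0.35 and were not called.

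**Figure D4:**
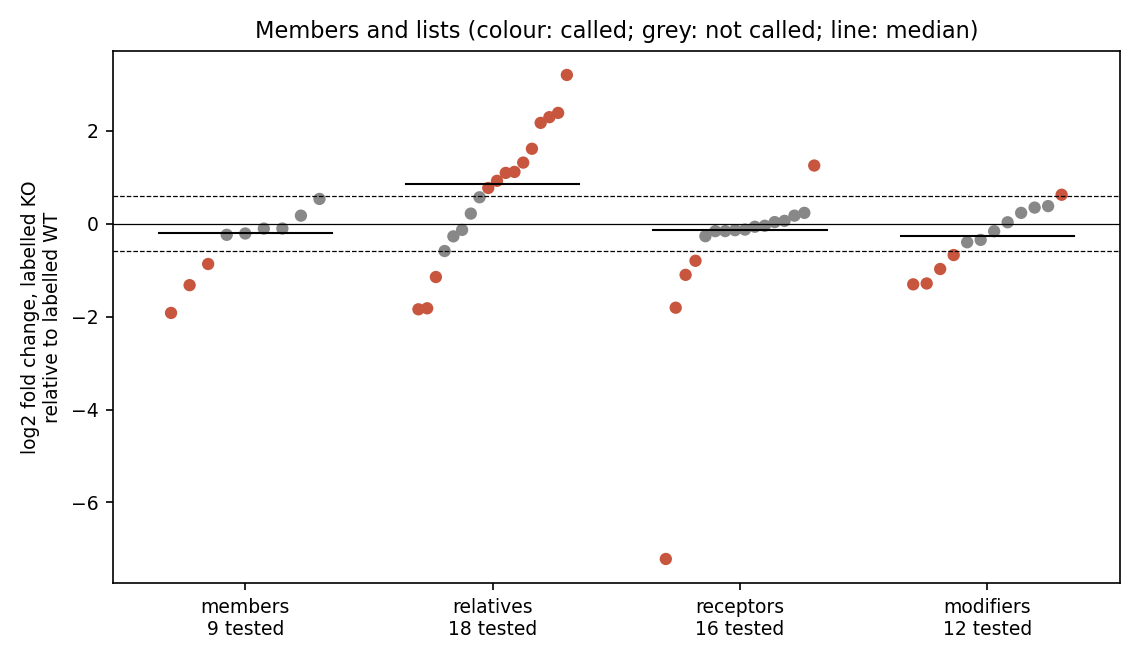
Log2 fold change in the KO-labelled wells relative to WT-labelled wells (vertical axis) of the members and of the tested relatives, receptors and modifiers, with 1 point per gene (red, called; grey, not called), a line at each median and dashed lines at 1.5-fold. The medians are -0.21, 0.84, -0.14 and -0.26, and the lowest point is Itgb8 at -7.21.

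Genes next to the members along the chromosome were read for their direction. Of 18 nearest genes of the table on either side, 17 were tested and 6 were called, 4 higher and 2 lower in the KO-labelled wells, where 17.7% of all genes were called, 11.6% higher and 6.10% lower. The nearest such genes to Thbs2 are Wdr27, 124 kb away, which fell by 0.66 on the log2 scale, and Smoc2, 261 kb away, which rose. Wdr27 was scarce, at 1.21 ± 0.152 CPM in the WT-labelled wells and 0.770 ± 0.0899 CPM in KO-labelled wells. Both neighbours of Tnc in the table, Tmem268 and Pappa, 373 and 1077 kb away, were higher, with log2 fold changes of 1.29 and 0.77. Both were scarce: Tmem268 had 0.890 ± 0.0617 CPM in the WT-labelled wells and 2.19 ± 0.185 CPM in KO-labelled wells. Pappa had 0.394 ± 0.0713 and 0.667 ± 0.118 CPM. Sparcl1, a SPARC relative 321 kb from Spp1, rose by 1.09 on the log2 scale (SE 0.10, adjusted p = 7.14e-07), while Pkd2, 18.4 kb on the other side, had a log2 fold change of -0.15. Hdac11, 37.8 kb from Fbln2, fell by 0.76, where Fbln2 had a log2 fold change of 0.53.

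Markers of other cell types were read beside the members. All 4 mesothelial markers were higher in the KO-labelled wells, at a summed level between 267.0 and 267.4 CPM, against 21.5 to 24.4 CPM in WT-labelled wells, with Msln at 2.37 ± 0.394 and 166 ± 2.33 CPM. Msln encodes mesothelin, and all 4 passed the test. Of 10 epithelial markers 5 were analysed here, with a sum between 20.2 and 22.7 CPM in the WT-labelled wells and between 44.0 and 45.5 CPM in KO-labelled wells. These markers did not move together: Krt7 had 4.38 ± 0.472 and 23.1 ± 0.257 CPM and Cela1 8.04 ± 0.747 and 14.7 ± 0.964 CPM, while Sox9 had 8.51 ± 0.104 and 6.03 ± 0.446 CPM. Of 5 smooth muscle and pericyte markers 1 was analysed here, Mcam, between 3.23 and 3.91 CPM and between 19.0 and 21.4 CPM. Of 4 Schwann cell markers 3 were analysed here, summing to between 3.61 and 5.20 CPM and between 3.61 and 4.68 CPM, and of 5 endothelial markers 0. Of the 8 fibroblast markers 7 were tested and 4 fell, with log2 fold changes of -1.55 for Dcn, -0.94 for Col3a1, -0.90 for Pdgfra and -0.66 for Pdgfrb. The other 3 were not called, at -0.19 for Col1a2, -0.13 for Vim and 0.01 for Col1a1, and the counts of Thy1, given above, were higher in the KO-labelled wells. The part of these marker differences in the results of the members was not tested.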

How the data were processed

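Polyadenylated RNA of 6 wells was sequenced from libraries made with 250 ng input and 13 PCR cycles, per the labels. The authors deposited raw counts of reads per gene, without normalization, and log2 CPM values from limma's voom, and both tables list 14831 genes after removal of low ones. The submitters' processing notes name STAR 2.7.2b, featureCounts, limma and GRCm38.p6, with no role for each. Strand use and how low genes were removed are not given in the sources used here. Identifiers were matched to GENCODE M21 (GRCm38), 14822 of them without the version, for positions, lengths and overlaps.

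The test was that of edgeR 4.0.16 under R 4.3.3 (TMM factors, filterByExpr, quasi-likelihood F test, Benjamini-Hochberg adjustment over 14289 genes), and calls needed an adjusted p under 0.05 as well as a 1.5-fold difference. Standard errors come from the log2 fold change and its F statistic, and 95% intervals from the test's degrees of freedom. CPM values are TMM-scaled, and a floor of 3 counts is at most 0.0946 CPM, covering counting error only. With wells as replicates, p-values measure the spread between wells, with a common biological coefficient of variation of 3.74%. No pair of libraries of a group agreed within sampling noise (chi-square over its degrees of freedom, 2.50 to 7.74). Deviations by transcript length used genes with a mean of at least 10 CPM and log2(CPM + 0.5). The test was also run on simulated counts, with the same dispersion for every gene and balanced changes. That simulation does not probe the scaling or the spread shared by long transcripts, and no result here rests on it.

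Groups follow the genotype label, and replicates are numbered in accession order. The members and the lists were chosen with earlier results of these data known. Genes named from a list are up to 3 in each direction with the largest called change, among those where each well of the higher group had 50 counts or more. Itga5, Itgb1, Itgb3, Cd47, Cd44, Pofut2, B3glct, Mmp9 and the neighbours of the members were named after their values were seen. Alternatives were other fold limits, other scalings and other filters, DESeq2 1.42.0, limma 3.58.1 on the counts and on the deposited log2 values, robust shrinkage and leaving out each library.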

Additional observations from a re-analysis of the deposited data

How the results depend on the processing

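The fold limit moved the counts of calls most. Without it, 8391 genes passed in all, 7 of the 9 members, 11 receptors and 10 modifiers, and at 2-fold 1456 genes, 2 members and 2 modifiers did. At 2-fold Tnc was no longer called. The same 3 members were called under every other alternative, and upper-quartile factors added Fbln2 at a log2 fold change of 0.59. No member changed direction under any of the 17 alternatives. The other fold limits reuse the main fit, so that no direction could change under them. Thbs3 lost an adjusted p under 0.05 under upper-quartile factors (0.224), total counts (0.0836), DESeq2 (0.0542) and without KO replicate 2 (0.0699). Without the fold limit, upper-quartile factors gave 5185 genes higher and 3284 lower, against 4277 and 4114 with TMM. Leaving out each library in turn gave between 2501 and 2618 called genes, always 3 members, 13 to 15 relatives, 5 receptors and 4 or 5 modifiers, and a log2 ratio of Thbs1 to Thbs2 that differed between the groups by 1.64 to 1.80. That alternative for the ratios was chosen after seeing the data. No paired analysis was possible because the labels give no replicate numbers shared between the groups. Depth limits Postn and Thbs2, with at most 122 counts in a library.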

Other observations

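Of the CCN genes, which encode secreted modulators of growth factor signalling, Ccn1, Ccn2 and Ccn3 rose. Ccn1 had 284 ± 22.5 CPM in the WT-labelled wells and 705 ± 28.2 CPM in KO-labelled wells, a log2 fold change of 1.31, and Ccn2 of 1.11. Ccn2 varied between the WT-labelled wells, with 8907, 6546 and 4989 counts, and had 16276, 19996 and 14266 counts in KO-labelled wells. Ccn4 had a log2 fold change of -0.28 and Ccn5 of 0.56, under the 1.5-fold limit. These genes were named after their values were seen.

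Long transcripts shared a spread between wells within both groups. Lrp1, a receptor of thrombospondin 1 with a very long transcript, had 119508, 141900 and 155930 counts in the WT-labelled wells and 119763, 147354 and 158240 in KO-labelled wells. Its deviation from the group mean on the log2 scale was -0.17 in WT replicate 1, 0.19 in WT replicate 3, -0.19 in KO replicate 1 and 0.31 in KO replicate 3. Tnxb deviated by -0.20, 0.21, -0.17 and 0.21 in the same libraries, and Tnc by -0.14, 0.12, -0.10 and 0.09. Over the 1565 genes whose longest transcript is under 2 kb, the medians were 0.02, -0.02, 0.02 and -0.03. These values are a description, and no test was run on them.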
